A study of Mus musculus with 8 samples.

Results

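The smooth muscle contractile genes are 10 genes whose products build, brace or switch on the contractile filaments of smooth muscle. They were taken by gene name, with no threshold on measured values, as Acta2, Tagln, Cnn1, Myh11, Des, Myl9, Actg2, Lmod1, Smtn and Mylk. All 10 were found among the 35539 genes of the deposited table, and all 10 were among the 15095 genes tested. A gene was tested where it reached 1 TPM in at least 2 tumors, and TPM (a share of all transcripts) is a level corrected for transcript length, so it can be compared between genes. Lmod1 passed this filter only through 2 tumors that had received rapamycin (D1L and A3L).

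The 8 libraries came from 8 subcutaneous tumors made with the mouse tumor line 105K, which lacks functional Tsc2, in immunocompetent female C57BL/6J mice, bought at 6 weeks of age and age-matched. The 4 treatments, with 2 tumors each, were loratadine plus rapamycin (tumors A3L and C1R), rapamycin at 0.25 mg/kg/day (D1L and G3L), loratadine at 25 mg/kg/day (B3R and F3R) and vehicle, carboxymethylcellulose (B1L and F5L). All tumors share the 105K cells and their loss of Tsc2, so there is no group with Tsc2 restored, and the model is a single cell line. The tumor code was read as cage, animal and side. On this reading, the tumors with rapamycin came from cages A, C, D and G and those without it from cages B and F. Rapamycin and cage then cannot be told apart. The right-side tumors (B3R, F3R and C1R) had all received loratadine. Loratadine, an antihistamine that blocks the H1 receptor, was oral by the study's methods and intraperitoneal by the sample labels. Rapamycin treatment, alone or combined, was started at larger tumor volumes than the other single agents by the study's methods, so the drug and the size at its start cannot be told apart. The depth of each library is unknown, because TPM keeps none, and p-values rest on the spread between tumors.

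The contractile unit of smooth muscle slides actin filaments (Acta2 and Actg2 encode its alpha and gamma isoforms) along myosin filaments (Myh11 encodes the smooth muscle heavy chain). Contraction is switched on when calcium activates myosin light chain kinase (Mylk), which phosphorylates the regulatory light chain (Myl9), and it is switched off by myosin phosphatase. Calponin (Cnn1), transgelin (Tagln), smoothelin (Smtn) and leiomodin (Lmod1) bind actin, and desmin (Des) is the intermediate filament of muscle cells. Most of these genes are targets of serum response factor, which binds the CArG box with coactivators of the myocardin family. Cells of lymphangioleiomyomatosis, the human disease that Tsc2-deficient cells model, are smooth muscle-like and stain for the product of ACTA2.

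In these bulk tumors the members spanned levels from under 1 TPM to over 100 TPM. Acta2 was highest by the mean over the 8 tumors at 86.1 TPM, followed by Smtn at 69.2, Tagln at 54.3, Mylk at 48.2 and Myl9 at 35.6 TPM. Actg2 averaged 6.61, Des 4.22, Cnn1 1.97, Myh11 1.28 and Lmod1 0.641 TPM. The ranges of Acta2 and Smtn over the 8 tumors overlapped (55.3 to 114 TPM and 41.5 to 96.3 TPM), as did those of Tagln, Mylk and Myl9. Myh11, Cnn1 and Lmod1, which are more restricted to smooth muscle, were far below Acta2 and Tagln in every tumor. In bulk tumors a difference may reflect fewer cells of a type or less RNA per cell, which cannot be told apart.

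**Figure D1:**
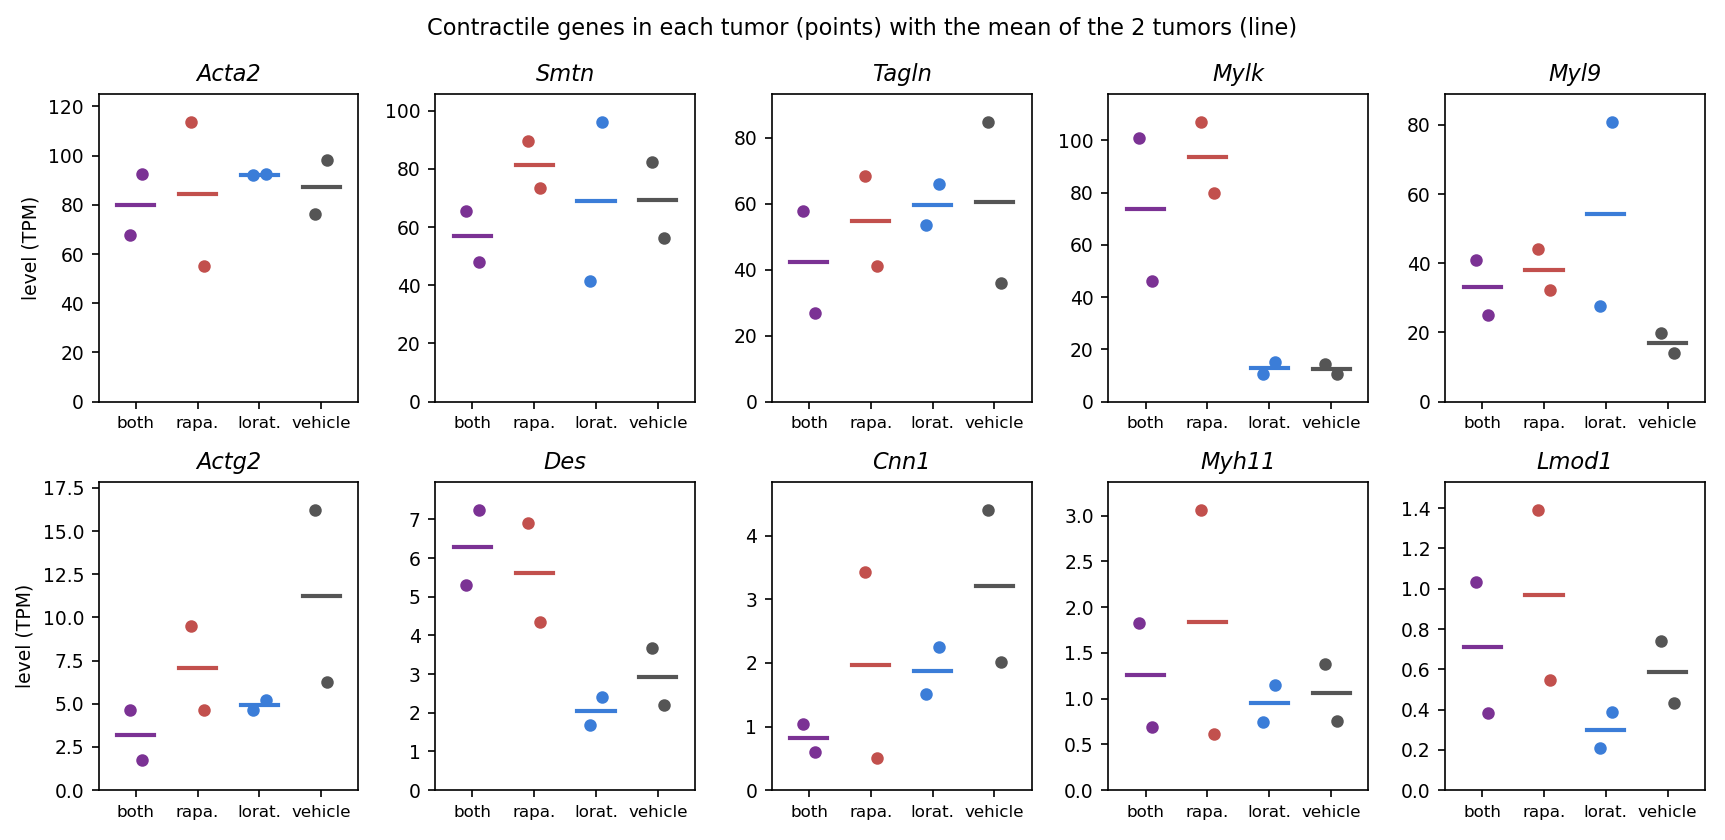
Level of each contractile gene in TPM (vertical axes, each from 0) in the 8 tumors by treatment, from left to right both drugs, rapamycin, loratadine and vehicle. Each point is 1 tumor and each line the mean of 2. Mylk lies at 46.0 to 107 TPM in the 4 tumors with rapamycin and at 10.7 to 15.3 TPM in the 4 without it, while Acta2 overlaps across all treatments.

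Rapamycin exposure was compared over 4 tumors with it and 4 without it, with loratadine as the other term of the model. Of the 10 members, Mylk and Des rose, none fell, and 8 did not pass the test (limma on log2(TPM + 1), Benjamini-Hochberg adjusted p under 0.05 over all genes). Over all genes tested, 19.9% passed in either direction and 12.0% were higher, so 2 of 10 is close to the background and says nothing particular about the group as a whole. With a tumor left out, the share of all genes passing in either direction fell to between 6.38% (without A3L) and 19.2% (without C1R). The median log2 fold change was 0.14 over the members and 0.12 over all genes. Of all genes, 1813 were higher and 1189 lower as deposited. With median-of-ratios scaling these counts were 1361 and 1574.

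Mylk, the kinase that phosphorylates the regulatory light chain, changed most among the members. Its level was 101 and 46.0 TPM with both drugs and 107 and 79.8 TPM with rapamycin, against 10.7 and 15.3 TPM with loratadine and 14.4 and 10.7 TPM with vehicle. Every tumor with rapamycin was above every tumor without it. The mean was 83.5 ± 27.6 TPM with rapamycin and 12.8 ± 2.45 TPM without it (SD, n = 4 each), a ratio of 6.54. The log2 fold change was 2.56 ± 0.27 (SE; limma adjusted p = 0.0072), with a 95% interval of 1.94 to 3.19. The call held in all 20 alternatives, with adjusted p between 0.00295 and 0.0297.

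By treatment, Mylk was highest with rapamycin (93.5 ± 19.4 TPM), followed by both drugs (73.6 ± 38.9), loratadine (13.0 ± 3.29) and vehicle (12.5 ± 2.64 TPM; SD, n = 2 each). The ranges of rapamycin and both drugs overlapped, as did those of loratadine and vehicle. Against the same vehicle tumors, the log2 difference was 2.80 ± 0.39 for rapamycin (limma adjusted p = 0.015) and 2.37 ± 0.39 for both drugs (limma adjusted p = 0.021). After median-of-ratios scaling, which moved the median of all genes in both drugs against vehicle to 0.03 against 0.22 as deposited, the second difference was 2.16. Mylk was the single member called in each comparison, 1 of 10 where 11.9% and 10.6% of all genes passed. Without vehicle tumor B1L the adjusted p was 0.0718 for rapamycin and 0.0802 for both drugs. Without F5L it was 0.0602 and 0.0799, and without A3L it was 0.104 for both drugs.

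The gene lies on chromosome 16 at 34745296 to 35002520 (plus strand, NCBIM37, the mm9 assembly), with 4 annotated transcripts. Mylk encodes a long kinase form used in non-muscle cells, a shorter smooth muscle form and telokin, a small protein from the end of the gene. The gene-level TPM does not separate these forms, so which of them rose was not tested.

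Des, the muscle intermediate filament protein, rose at a far lower level. It was at 5.31 and 7.24 TPM with both drugs and 6.91 and 4.34 TPM with rapamycin, against 1.68 and 2.41 TPM with loratadine and 3.68 and 2.19 TPM with vehicle. Again no tumor with rapamycin overlapped those without it, and Mylk and Des were the 2 of 10 members with this separation, where 26.2% of all genes had it in either direction. The means were 5.95 ± 1.36 and 2.49 ± 0.85 TPM (SD, n = 4 each), and the log2 fold change was 1.0 ± 0.24 (limma adjusted p = 0.027). The call was lost in 9 of 19 alternatives, among them leaving out F5L (adjusted p = 0.0775), B3R (0.0648), F3R (0.0564), D1L (0.074), A3L (0.0718) or C1R (0.0542), with the adjusted p between 0.0229 and 0.078 over all alternatives. Des did not pass in rapamycin or both drugs against vehicle (limma adjusted p = 0.17 and 0.12).

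Skeletal muscle fibres also express desmin, and tumor C1R, where Des was highest, stood apart in the 15 skeletal fibre markers. Their summed level was 248 TPM in C1R and 10.8 to 31.1 TPM in the other 7 tumors, with Acta1 (skeletal actin) at 40.5 TPM and Ckm (muscle creatine kinase) at 26.2 TPM in C1R. Without C1R the log2 fold change of Des was 0.88 (adjusted p = 0.0542). Mylk in C1R was the lowest of the tumors with rapamycin.

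**Figure D2:**
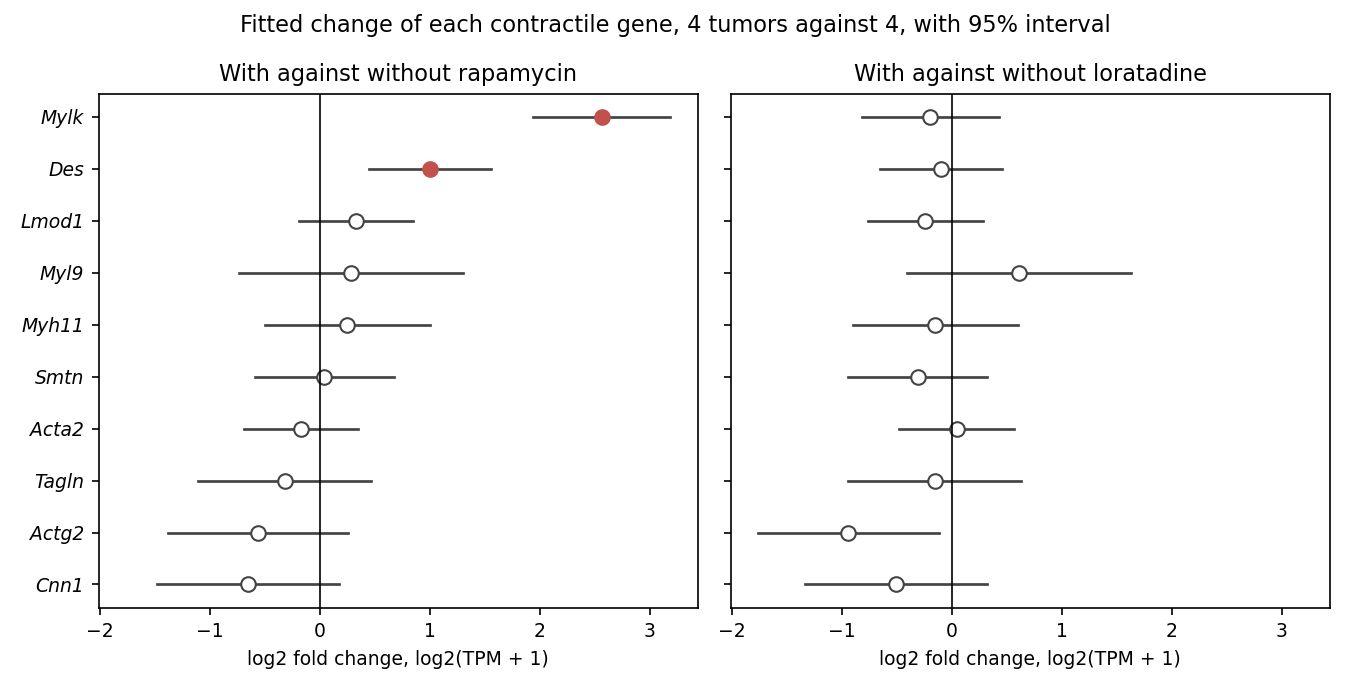
Fitted log2 fold change of each contractile gene with its 95% interval (horizontal axes, log2(TPM + 1) scale), for 4 tumors with against 4 without rapamycin on the left and loratadine on the right. Filled points passed an adjusted p of 0.05. Mylk at 2.56 and Des at 1.0 are filled on the left, and no point is filled on the right.

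Acta2, the smooth muscle actin used as a marker of these cells, did not pass the test. It was at 67.7 and 92.6 TPM with both drugs and 114 and 55.3 TPM with rapamycin, against 92.0 and 92.7 TPM with loratadine and 76.4 and 98.1 TPM with vehicle. The highest and the lowest of the 8 values both came from tumors given rapamycin alone. The log2 fold change with rapamycin was -0.17 ± 0.23 (limma adjusted p = 0.61), and its 95% interval of -0.69 to 0.35 leaves room for a modest change either way. The gene is on chromosome 19 at 34315580 to 34329826 (minus strand, NCBIM37). Its coding sequence shares 84.4% of aligned bases with Actg2, 85.4% with Acta1 and 82.0% with Actg1, so reads may be split between actins, and how the authors' counting treated them was not tested.

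Actg2, the gamma actin of visceral smooth muscle, had its highest value in a vehicle tumor. It was at 4.62 and 1.76 TPM with both drugs, 9.51 and 4.64 TPM with rapamycin, 4.62 and 5.24 TPM with loratadine, and 16.2 and 6.24 TPM with vehicle. Of the members it had the lowest unadjusted p for loratadine, with a log2 fold change of -0.94 ± 0.36, an adjusted p of 0.59 (limma) and overlapping groups. The value for rapamycin was -0.56 ± 0.36 (limma adjusted p = 0.28).

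The actin-binding members gave no call. Cnn1, calponin, was at 1.03 and 0.602 TPM with both drugs and 3.43 and 0.511 TPM with rapamycin, against 1.51 and 2.25 TPM with loratadine and 4.41 and 2.02 TPM with vehicle. The spread within rapamycin alone covered most of the range of the other tumors, and the log2 fold change of -0.65 ± 0.36 had an adjusted p of 0.22 (limma). Tagln, transgelin, was at 57.8 and 27.0 TPM with both drugs and 68.4 and 41.1 TPM with rapamycin, against 53.5 and 65.9 TPM with loratadine and 85.0 and 36.0 TPM with vehicle, with a log2 fold change of -0.32 ± 0.34 (limma adjusted p = 0.53). Tagln overlaps Pcsk7 on the opposite strand, as Des overlaps a non-coding transcript, and whether strand was used in counting is not given in the sources used here. Smtn, smoothelin, ranged from 48.1 to 89.6 TPM with rapamycin and from 41.5 to 96.3 TPM without it, and Lmod1 from 0.385 to 1.39 TPM with rapamycin and from 0.207 to 0.738 TPM without it. Neither passed (limma adjusted p = 0.93 and 0.32).

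Of the myosin members, Myh11 stayed near the filter. The smooth muscle heavy chain was at 1.82 and 0.690 TPM with both drugs and 3.06 and 0.612 TPM with rapamycin, against 0.748 and 1.15 TPM with loratadine and 1.38 and 0.756 TPM with vehicle. Myl9, the light chain on which Mylk acts, was at 41.0 and 25.1 TPM with both drugs, 44.0 and 32.2 TPM with rapamycin, 27.5 and 81.0 TPM with loratadine, and 19.8 and 14.2 TPM with vehicle. The vehicle tumors held its 2 lowest values. The log2 difference from vehicle was 0.89 ± 0.50 for both drugs, 1.12 ± 0.50 for rapamycin and 1.44 ± 0.50 for loratadine, none past the threshold (limma adjusted p = 0.26, 0.17 and 0.36). The 3 differences share the same vehicle tumors.

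Loratadine was compared in the same way, over 4 tumors with it and 4 without it. None of the 10 members passed (limma), and 1 of them, Actg2, had an unadjusted p under 0.05. Over all genes, 0.0% passed and 1255 had an unadjusted p under 0.05. The median log2 fold change was -0.18 over the members, 8 of which were negative, and 0.10 over all genes. Marker lists of other cells were read for loratadine too, and the sums overlapped between the arms in each list named here. All 14 fibroblast markers had a positive log2 fold change (median 1.09, 11 with an unadjusted p under 0.05, none passing in limma), and their sum was 3438 to 6669 TPM with loratadine and 1236 to 3785 TPM without it. All 9 adipocyte markers were positive too (median 1.97, none with an unadjusted p under 0.05), with sums of 14.9 to 702 TPM with loratadine and 15.5 to 184 TPM without it. In loratadine against vehicle their median was 3.29, and 7 had an unadjusted p under 0.05, none passing in limma. All 9 had a negative interaction, 2 with an unadjusted p under 0.05. All 8 blood endothelial markers (median 0.33, 2 with an unadjusted p under 0.05) and all 7 tested skeletal fibre markers (median 1.29, none) were positive. The part of these cells in the members' values was not tested. None of the members separated the 4 tumors with loratadine from the 4 without it, against 2.75% of all genes. The 95% intervals of the 10 members differed in width, from -0.48 to 0.56 for Acta2 to -0.41 to 1.63 for Myl9, and that of Actg2 was -1.76 to -0.12 before any adjustment.

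The pairs of treatments that differ only by loratadine called no member either. Against vehicle, 0 of 10 members passed with loratadine alone (limma), where 0.0199% of all genes passed, and 1 member, Myl9, had an unadjusted p under 0.05. Both drugs against rapamycin called 0 of 10 members and 0.0% of all genes (limma), with 0 members at an unadjusted p under 0.05. Mylk differed there by -0.43 ± 0.39 (limma adjusted p = 1.0, 95% interval -1.35 to 0.49), and by 0.13 without C1R. The interaction of the 2 drugs called 0 of 10 members (limma), where 0.00662% of all genes passed, again with 0 members at an unadjusted p under 0.05. Myl9 came closest, at -1.67 ± 0.71 (limma unadjusted p = 0.0502, adjusted p = 0.93). Hrh1, the receptor that loratadine blocks, was at 0.337 to 1.12 TPM in the 8 tumors and was too low to be tested.

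The promoters of the members were read to see which of them hold the CArG box, the element shared by many contractile genes. A box was counted as 2 C, 6 bases of A or T and 2 G, or the same with 1 of the 6 being C or G, and both forms read alike on either strand. RefSeq promoters (GRCm38.p6, 250 bases before to 50 after the start, another build than the files) were held for 7 members, Acta2, Cnn1, Des, Myl9, Lmod1, Smtn and Mylk. Of these, 2 (Acta2 and Myl9) held a box, as did 9.98% of all 32851 promoters of that length. The window of Acta2, a member that did not pass the test, held boxes at -84 and -34 from the start, each with 1 base off the full form. That of Myl9 held the full form at -161 and 1 base off it at -99. The windows of Mylk and Des, the members that rose, held none of these letters, which says nothing of other starts or of the factor. The 4 windows are shown 5′ to 3′ to set the members that rose beside the members with boxes, which are in capitals. They lie at chr19:34255324-34255623 (Acta2, minus strand), chr2:156775214-156775513 (Myl9, plus), chr16:34784700-34784999 (Mylk, plus) and chr1:75360042-75360341 (Des, plus).
Acta2: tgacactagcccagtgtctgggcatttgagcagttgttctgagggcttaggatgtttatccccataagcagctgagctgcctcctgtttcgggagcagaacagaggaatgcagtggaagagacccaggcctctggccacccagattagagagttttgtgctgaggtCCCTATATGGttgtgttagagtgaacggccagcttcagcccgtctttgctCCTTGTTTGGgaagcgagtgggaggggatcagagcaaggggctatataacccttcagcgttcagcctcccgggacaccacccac
Myl9: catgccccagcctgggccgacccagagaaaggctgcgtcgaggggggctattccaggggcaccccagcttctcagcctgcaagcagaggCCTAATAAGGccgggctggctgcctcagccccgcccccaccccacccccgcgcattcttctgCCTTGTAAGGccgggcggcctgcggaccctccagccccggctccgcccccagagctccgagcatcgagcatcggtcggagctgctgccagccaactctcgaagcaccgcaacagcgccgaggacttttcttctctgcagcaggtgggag
Mylk: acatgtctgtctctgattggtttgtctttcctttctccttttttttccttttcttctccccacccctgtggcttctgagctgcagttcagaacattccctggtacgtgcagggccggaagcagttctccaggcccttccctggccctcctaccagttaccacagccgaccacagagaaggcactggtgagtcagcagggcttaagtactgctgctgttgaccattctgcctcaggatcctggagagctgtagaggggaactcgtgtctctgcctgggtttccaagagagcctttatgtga
Des: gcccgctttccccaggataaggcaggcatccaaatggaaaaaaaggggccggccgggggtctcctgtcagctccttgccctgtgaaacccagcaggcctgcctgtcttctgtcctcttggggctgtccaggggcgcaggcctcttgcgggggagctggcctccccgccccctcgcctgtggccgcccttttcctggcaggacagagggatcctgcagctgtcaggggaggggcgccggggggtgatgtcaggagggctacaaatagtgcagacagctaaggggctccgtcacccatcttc

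Other genes that set light chain phosphorylation were compared in the same way. Of 13 genes listed, 12 were tested, 2 rose, 1 fell and 9 did not pass, where 19.9% of all genes passed for rapamycin. The median log2 fold change of the list was 0.04. On the phosphatase side, Ppp1r12c and Ppp1r12b, which encode targeting subunits of myosin phosphatase, rose. Ppp1r12c was at 127 and 115 TPM with both drugs and 97.4 and 110 TPM with rapamycin, against 95.4 and 82.0 TPM with loratadine and 66.5 and 69.7 TPM with vehicle (log2 fold change 0.52 ± 0.11, limma adjusted p = 0.019). Leaving out B1L, F5L or A3L gave an adjusted p of 0.0521, 0.0566 or 0.065. Ppp1r12b was at 4.28 to 9.16 TPM with rapamycin and 2.45 to 4.65 TPM without it (0.88 ± 0.24, limma adjusted p = 0.040), and leaving out any single tumor other than G3L ended the call, with adjusted p between 0.0506 and 0.102. Ppp1r12a, the subunit of smooth muscle, Ppp1cb, the catalytic subunit, and the kinases Rock1 and Rock2 did not pass.

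**Figure D3:**
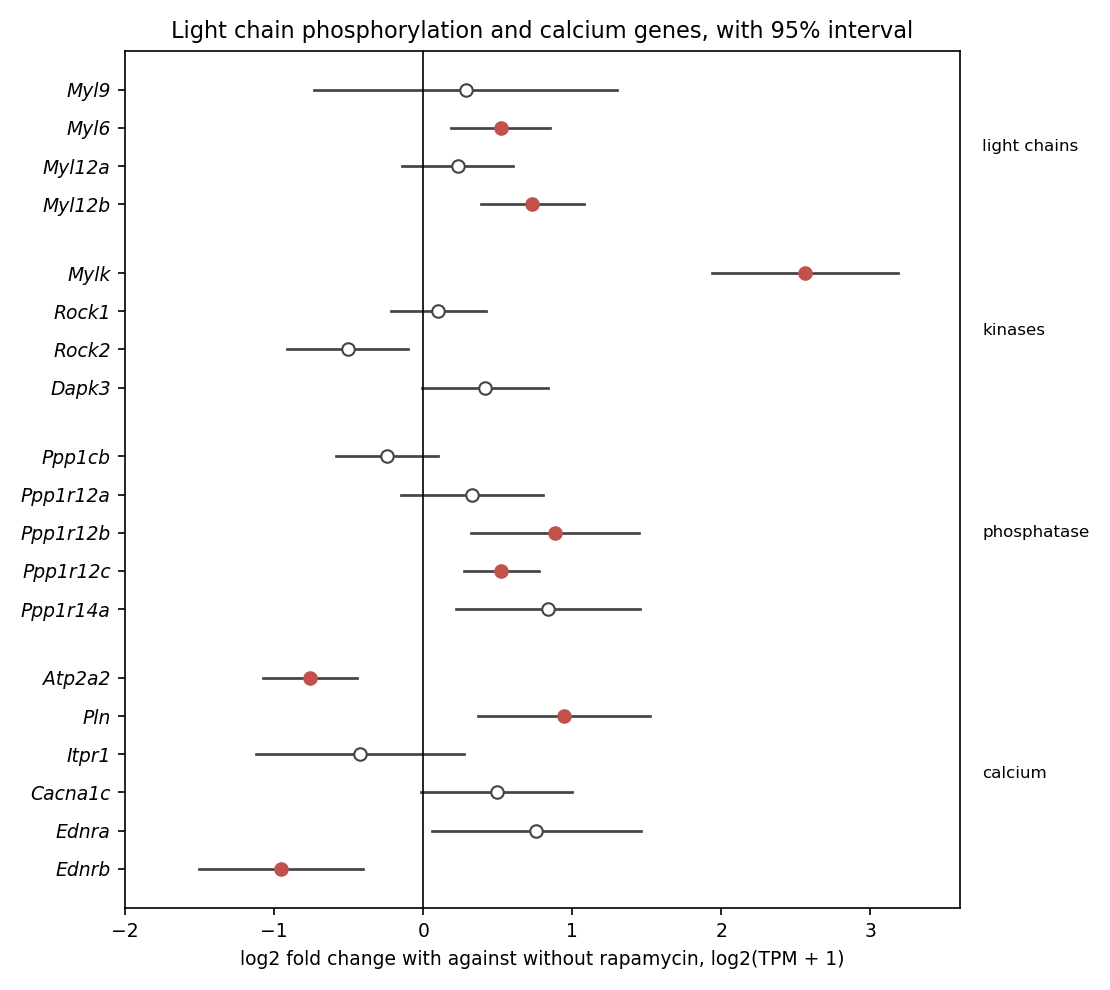
Fitted log2 fold change with against without rapamycin and its 95% interval (horizontal axis, log2(TPM + 1) scale) for light chains, Mylk and other kinases, phosphatase and calcium genes, 4 tumors against 4. Filled points passed an adjusted p of 0.05. Mylk at 2.56 lies far from the others, and Atp2a2 lies at -0.76.

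Among the genes of calcium entry, store and receptors, 8 of 14 were tested, 1 rose, 2 fell and 5 did not pass. The share passing over all genes was 19.9%. Atp2a2, the pump that returns calcium to the store, was at 87.2 and 92.6 TPM with both drugs and 63.0 and 75.3 TPM with rapamycin, against 130 and 127 TPM with loratadine and 131 and 148 TPM with vehicle. It was lower in every tumor with rapamycin than in any without it, a separation that 26.2% of all genes had in either direction. The log2 fold change was -0.76 ± 0.14 (limma adjusted p = 0.013), and the call held in all 20 alternatives (adjusted p 0.0106 to 0.0451). Pln, phospholamban, which inhibits this pump, was at 1.03 to 3.11 TPM with rapamycin and 0.462 to 0.763 TPM without it (0.95 ± 0.25, limma adjusted p = 0.035), and it passed the filter only through tumors with rapamycin. Ednrb, an endothelin receptor, was at 1.23 to 2.77 TPM with rapamycin and 3.28 to 7.15 TPM without it (-0.96 ± 0.24, limma adjusted p = 0.030). Leaving out a tumor other than G3L ended the call of Pln (adjusted p 0.0525 to 0.104), and leaving out B1L, F5L, F3R, D1L, G3L or A3L ended that of Ednrb (0.0545 to 0.0865). Ednra, the endothelin receptor typical of smooth muscle, was at 7.32 to 20.0 TPM with rapamycin and 5.04 to 9.08 TPM without it and did not pass.

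The actin and myosin paralogs of other cells differed widely in level, with 6 genes under 1 TPM in every tumor and Actb and Myl6 at 1392 TPM or more in every tumor. Of 21 listed, 13 were tested, 2 rose and 1 fell with rapamycin, where 19.9% of all genes passed. The non-muscle light chain gene Myl12b was at 820 and 750 TPM with both drugs and 732 and 744 TPM with rapamycin, against 584 and 582 TPM with loratadine and 342 and 378 TPM with vehicle (log2 fold change 0.73 ± 0.15, limma adjusted p = 0.018). Its adjusted p was 0.0569 without F5L, 0.0536 without D1L and 0.0508 without A3L. Its coding sequence shares 86.3% of bases with Myl9, so their reads may be split. Myl6, the essential light chain, was at 2202 to 2495 TPM with rapamycin and 1392 to 2026 TPM without it (0.52 ± 0.14, limma adjusted p = 0.041). Actg1, cytoplasmic gamma actin, was at 1428 to 1901 TPM with rapamycin and 2267 to 2957 TPM without it (-0.59 ± 0.16, limma adjusted p = 0.040), while Actb, cytoplasmic beta actin, did not pass. Both calls were sensitive to single tumors, that of Myl6 to any but B3R (adjusted p 0.0688 to 0.107) and that of Actg1 to any but C1R (0.0576 to 0.121).

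Of 16 partners at the thin filament and adhesions, 15 were tested, 1 rose and none fell, where 19.9% of all genes passed for rapamycin. Pdlim3, a PDZ and LIM protein of muscle actin bundles, was at 1.67 and 3.76 TPM with both drugs and 0.886 and 1.43 TPM with rapamycin, against 0.293 and 0.334 TPM with loratadine and 0.306 and 0.0912 TPM with vehicle (1.14 ± 0.25, limma adjusted p = 0.022). It passed the filter only through tumors with rapamycin (G3L, A3L and C1R). It was highest in C1R, the tumor with skeletal markers, and leaving out F5L, B3R, F3R or A3L gave an adjusted p of 0.0622, 0.0516, 0.0543 or 0.0503. None of the 9 tested genes for the transcription of contractile genes passed (limma), and 3 had an unadjusted p under 0.05 (Srf at -0.42, Csrp1 at 0.49 and Csrp2 at 0.79). Myocd, the coactivator of smooth muscle, was at 0.0244 to 0.2825 TPM, and its relatives Mrtfa and Mrtfb were at 19.0 to 36.9 TPM and 11.9 to 16.7 TPM.

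Cells other than smooth muscle express several members, so marker lists were read in the same tumors. The share of all genes passing for rapamycin was 19.9%. Of 10 pericyte markers, 1 rose, Pdgfrb (log2 fold change 1.44 ± 0.38, limma adjusted p = 0.034), and none fell. Their summed level was 105 to 148 TPM with rapamycin and 64.3 to 88.3 TPM without it, with no overlap. Without Pdgfrb the sums overlapped, at 55.0 to 82.8 TPM with rapamycin and 49.8 to 66.7 TPM without it. Of the 10 markers, 4 had a negative fold change, and none was at 0 in all tumors. The call of Pdgfrb was lost without B1L, F5L, B3R, F3R, D1L or C1R (adjusted p 0.051 to 0.0917). Of 14 fibroblast markers, Col1a1, Col3a1 and Thy1 rose with rapamycin (log2 fold changes of 1.02, 0.77 and 1.11) and Cthrc1 fell (-0.89), with limma adjusted p between 0.0206 and 0.041. Of 8 blood endothelial markers, Cdh5, Emcn and Esam fell (-1.4, -1.0 and -0.69, limma adjusted p between 0.018 and 0.030). Leaving out F5L or A3L, where 6.39% and 6.38% of all genes passed, ended each of these 7 calls (adjusted p 0.0531 to 0.11). Leaving out other tumors ended some of them. Fibroblast markers summed to 1236 to 6669 TPM with rapamycin and 1855 to 3771 TPM without it. Blood endothelial markers summed to 44.7 to 81.9 TPM with rapamycin and 81.5 to 115 TPM without it, and none of either list was at 0 in all tumors. Among 7 myoepithelial markers, 3 were under 1 TPM in every tumor and none of the 3 tested passed. The part of these cells in the change of Mylk and Des was not tested.

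As a check of the labels, Tsc2 was at 42.0 to 78.1 TPM in the 8 tumors, which does not test the loss of its function, since host cells carry the gene and a mutated gene may still be transcribed. The labels give the tissue as mammary tumor, while the study's methods describe cells injected under the skin. Of 11 mammary epithelial markers, 4 were under 1 TPM in every tumor, the milk protein genes Csn2, Csn1s1, Wap and Lalba. Krt8, a keratin of simple epithelia, fell with rapamycin (-1.08). Esr1 rose (1.18), as did Pax8, a renal epithelial marker (0.60, limma adjusted p of the 3 genes between 0.0166 and 0.0341). Esr1 was at 2.168 to 4.398 TPM with rapamycin and 0.299 to 1.496 TPM without it. Of the tumors without rapamycin only F3R reached 1 TPM, so Esr1 needed tumors with rapamycin to pass the filter. Leaving out D1L or A3L ended each of these 3 calls (adjusted p 0.051 to 0.102), and leaving out other tumors ended some of them.

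The members did not vary as a single block across the 8 tumors. Standardized log2(TPM + 1) of Myh11 and Lmod1 had a Pearson correlation of 0.93 and 0.82 with the mean of the other members, whereas the values were 0.09 for Acta2 and 0.30 for Des and Mylk (8 tumors that share their libraries, given as a description). Within a treatment the members often moved together. D1L was above G3L for 10 of 10 members, against 56.5% of all genes tested. B3R was below F3R for 10 of 10 members and above it for 47.6% of all genes. B1L was above F5L for 9 of 10, all but Acta2, against 42.4% of all genes, and A3L above C1R for 8 of 10, all but Acta2 and Des, against 53.0%.

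**Figure D4:**
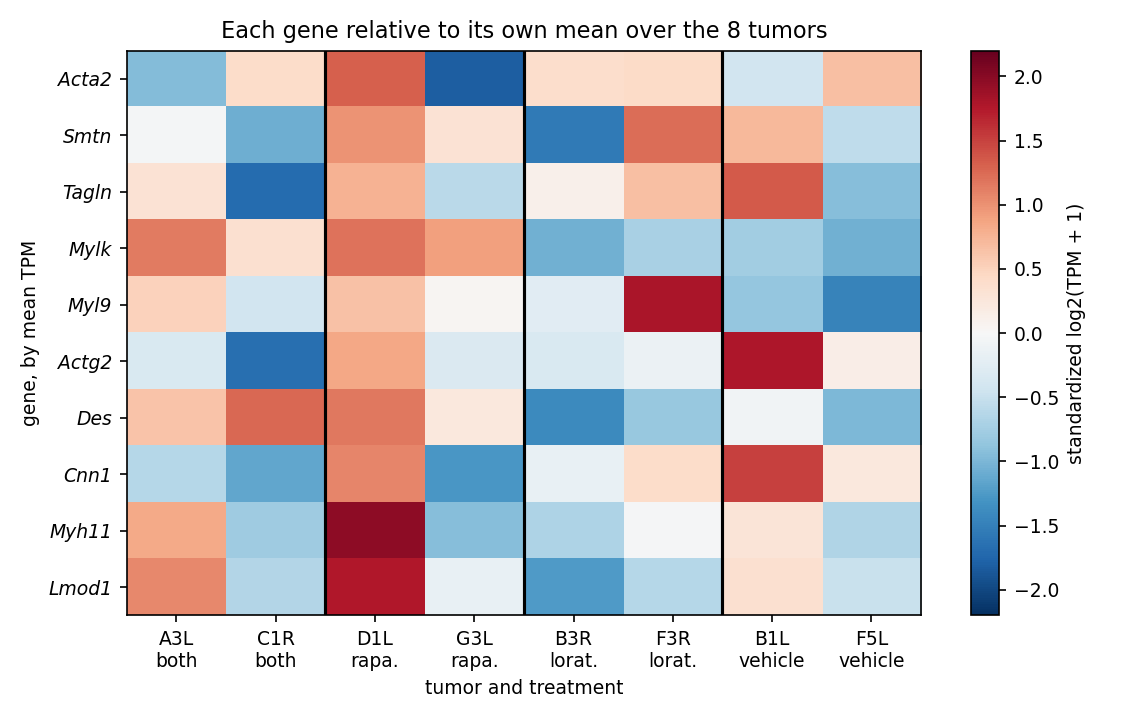
Standardized log2(TPM + 1) of each contractile gene (rows, by mean level) in each tumor (columns, by treatment, both drugs at the left and vehicle at the right), with red above and blue below the gene's own mean. D1L is above G3L in all 10 rows and F3R above B3R in all 10, while Mylk and Des are red in the 4 columns with rapamycin.

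The genes most like the members were sought over 11094 other genes with a mean of at least 5 TPM, by Pearson correlation over the 8 tumors with the mean standardized level of the members. These were Casp2 (0.97), Nucb2 (0.95), Tnnt2 (0.94), Rpl10a (0.92), Eef1a1 (0.91), Slc17a5 (0.91), Atf7ip (0.90) and Taf4a (0.90). Being picked as the highest of 11094 correlations over only 8 tumors, these values are a description, and a shared program was not tested. None of the 8 passed the test for rapamycin (limma adjusted p 0.58 to 0.83), and that mean was highest in D1L at 1.17 and lowest in B3R at -0.62.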

How the data were processed

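RNA of 8 tumors was sequenced after TruSeq library preparation. By the study's methods, the authors trimmed reads, quantified transcripts with Kallisto on mouse mm9 and summarised them by gene with tximport. In the processing notes of the submitters, bedtools, STAR 2.4.0f1 and SAMtools 0.1.18 appear instead, and which route gave the values is unclear. TPM was deposited by the authors in a pair of tables, of which the first was used, with all of its columns. Depth is unknown from TPM.

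The log2(TPM + 1) of genes reaching 1 TPM in 2 or more tumors entered limma 3.58.1 (R 4.3.3, trended empirical Bayes, two-sided). Adding 1 TPM before the log shrinks the change of low genes. Drug effects came from an additive model, pairs of treatments from 4 group means over all 8 tumors. The test was checked on simulated data. Positions came from the NCBIM37 annotation and figures from matplotlib 3.10.9. Genes were named by rule: all members, the called genes of each other list (or up to 4 with the smallest p), Tsc2 and the 8 genes most like the members. Some genes that the rule takes are not reported here. The members and lists were chosen with earlier results of these data known.

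Alternatives were pseudocounts of 0.1 and 0.5, omitting the filter, requiring an average of 5 TPM, median-of-ratios and quantile scaling, limma without trend or robust, the second table, each tumor left out, the mean of simple effects, only the 2 treatments compared, side as a term, cage as a block and an adjusted p under 0.1. The second table differed from the first by at most 5e-07 TPM, and an adjusted p under 0.1 only loosened the threshold of the main fit. A call kept in these alternatives therefore adds no support. Read as cage, animal and side, the tumor codes give separate animals. By the same codes a vehicle tumor and a loratadine tumor shared cage B, as did another such pair cage F, so the block was possible for these 4 tumors.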

Additional observations from a re-analysis of the deposited data

Results flagged for a closer look

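A lone value was sought for each member in each of the 4 arms of 4 tumors (with and without each drug), 40 comparisons in all, and chance alone marks about 1 in 20. Acta2 in the combination tumor A3L, at 67.7 TPM, lay below the other tumors with loratadine, which were at 92.0 to 92.7 TPM (gap over range 0.972). Actg2 in the vehicle tumor B1L, at 16.2 TPM, lay above the other tumors without rapamycin, which were at 4.62 to 6.24 TPM (gap over range 0.86).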

How the results depend on the processing

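The count of members called for rapamycin was 2. It was 1 (Mylk) when no filter was set, when an average of 5 TPM was required, with quantile normalization and with side as a term, and 1 to 2 with a tumor left out. The requirement of 5 TPM removed Des from the test. Of all genes, 8.05% passed for rapamycin when no filter was set and 6.23% with side as a term, against 19.9% in the main fit. Rapamycin against vehicle called 1 member, and 0 to 1 with a tumor left out. Both drugs against vehicle called 1, against 0 when no filter was set and 0 to 1 with a tumor left out. The cause of the other losses was not tested. The counts for loratadine, the interaction and the other pairs were 0 in every alternative run, among them cage as a block for loratadine against vehicle and the same 4 tumors without it, and Mylk kept its rapamycin call in all 20. Lmod1 missed the filter in several alternatives and then had no value.

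Signs turned for some members that were not called. With side as a term, loratadine effects became -0.254 for Acta2, 0.332 for Tagln, 0.247 for Myh11, 0.119 for Lmod1 and 0.334 for Mylk, and the rapamycin effect of Smtn became -0.008. With median-of-ratios scaling, Smtn was at -0.064 for rapamycin, Acta2 at -0.069 for loratadine and Mylk at -0.083 in loratadine against vehicle. With quantile normalization, Myh11 was at -0.029 for rapamycin, Acta2 at -0.015 for loratadine and Mylk at -0.055 in loratadine against vehicle. With a tumor left out, rapamycin effects ran from -0.386 to 0.025 for Acta2, -0.033 to 0.5 for Myh11 and -0.158 to 0.32 for Smtn. Loratadine effects then ran from -0.153 to 0.259 for Acta2, -0.453 to 0.108 for Tagln, -0.402 to 0.131 for Myh11, -0.265 to 0.059 for Des and -0.371 to 0.076 for Mylk. Mylk also ran from -1.034 to 0.085 in the interaction, -0.2 to 0.284 in loratadine against vehicle and -0.991 to 0.127 in both drugs against rapamycin.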
